A study of Mus musculus with 32 samples.

Results

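The genes described here were 10 members of the BCL2 family, which decides whether a cell under stress releases factors from its mitochondria and dies. They were found in the deposited table of normalized expression by their gene symbols, and were 10 of the 22850 genes in it. By role they were 3 pro-survival genes (*Bcl2*, *Bcl2l1* and *Mcl1*), 2 effectors (*Bax* and *Bak1*) and 5 BH3-only genes (*Bad*, *Bid*, *Bbc3*, *Pmaip1* and *Bcl2l11*). All 10 passed the filter on low values in every fit. Expression had been measured by RNA sequencing in 32 samples of sorted islet cells from C57BL/6 mice of the genotype βVEGF-A; MIP-GFP. The rat insulin 2 promoter drives rtTA in their β cells, so that doxycycline (Dox) in the drinking water switches on a TetO transgene for human VEGF-A165, and a mouse insulin 1 promoter drives GFP. Every sample, controls included, carried these 3 transgenes. No Dox mice were untreated, 1wk Dox mice received Dox for 1 week, and 1wk WD mice were taken 1 week after Dox was withdrawn. Per the study's methods, mice were 8 to 16 weeks old when experiments began. β cells were sorted as GFP+ cells without CD31 or CD11b (4 No Dox, 5 1wk Dox and 3 1wk WD samples). Endothelial cells (ECs) were sorted by CD31 (4, 1 and 5 samples) and macrophages (MΦs) by CD11b (4, 2 and 4 samples). The transcriptomes were collected to follow signals during β cell loss and recovery. Islets from several mice were pooled for each sort and non-viable cells were gated out, so the values describe cells that were alive at the sort.

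Proteins of the BCL2 family act at the outer mitochondrial membrane. BCL2, BCL-XL (the main product of *Bcl2l1*) and MCL1 hold the effectors BAX and BAK1 in check. BH3-only proteins, which share with the others little more than a short helix called the BH3 domain, bind the pro-survival proteins or the effectors. When BAX or BAK1 opens pores, cytochrome c leaves the mitochondria and activates caspases. Much of the control of these proteins lies in protein turnover, phosphorylation and cleavage, which transcript levels do not measure. MCL1 protein is short-lived, and Bcl-xL and MCL1 are known to matter for the survival of endothelial cells and myeloid cells.

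The codons of the core of the BH3 helix are shown because this is the feature that makes these genes a family. Each line gives 24 bases of the coding strand, read from mm9 with the GENCODE M1 coding sequence, and the capitals mark the codon of the conserved aspartate.
Bcl2, chr1:108609155-108609178, minus strand: ctccgccgggctgggGATgacttc
Bcl2l1, chr2:152655436-152655459, minus strand: ctgagagaggcaggcGATgagttt
Mcl1, chr3:95463359-95463382, plus strand: ctgcggcgcgtgggcGACggcgtg
Bax, chr7:52721370-52721393, minus strand: ctccggcgaattggaGATgaactg
Bak1, chr17:27159479-27159502, minus strand: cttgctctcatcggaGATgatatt
Bad, chr19:7025282-7025305, plus strand: ctccgaaggatgagcGATgagttt
Bid, chr6:120847310-120847333, minus strand: ctcgcccaaataggcGATgagatg
Bbc3, chr7:16899122-16899145, plus strand: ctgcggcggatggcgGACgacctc
Bcl2l11, chr2:127972886-127972909, plus strand: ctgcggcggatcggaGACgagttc

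All 9 stretches lie within coding exons, and each coding sequence held a single match to the pattern searched. The pattern was a leucine codon, any 3 codons, a glycine, alanine or serine codon, an aspartate codon, and then a glycine, aspartate or glutamate codon. It is loose, since 1758 of 21918 coding genes (8.02%) held it. *Bbc3* and *Bcl2l11* shared 19 of the 24 bases, the most of any pair, and *Bcl2* and *Bcl2l1* shared 15. *Pmaip1*, the gene of NOXA, is named without its sequence. Several members overlap a gene on the other strand (*Bcl2* with D630008O14Rik, *Bak1* with *Ggnbp1*, *Bad* with *Gpr137*, *Bid* with *Bcl2l13*), and *Bcl2l1* overlaps AL731857.1 on its own strand. Whether strand was used in counting is not given in the sources used here, so reads in the shared stretches cannot be assigned with certainty.

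Values are given as scores, the normalized expression in whole numbers as deposited, where 1 is the lowest value and stands for no signal. Read counts were not used here, so the depth behind a score is unknown. Whether scores were scaled for gene length is not stated, so levels are compared between samples and never between genes. Differences are on the log2(score + 1) scale, and a gene was called when it passed both a 2-fold difference and an adjusted p of 0.05 in limma. In these bulk samples fewer cells of a type and less RNA per cell cannot be told apart, and p-values measure the spread between pooled samples.

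The labelled cell types matched their markers. Summed scores of 8 β cell markers were 499669 to 10883675 in β samples and no higher than 45605 elsewhere, and those of endothelial and macrophage markers were likewise highest in their own sorts. β samples stood apart from each other in stromal markers (fibroblast and mural cell genes). These 8 markers, each detected in at least 1 sample of every group, summed to 948 and 1027 in No Dox replicates 1 and 2 but 147657 and 524043 in replicates 3 and 4, and lay between 103540 and 484308 in the 1wk Dox samples and between 24866 and 357420 in the 1wk WD samples. Acinar markers also varied, from 33792 to 13328880 in No Dox β samples and from 26288 to 12184621 in No Dox MΦs. Library identifiers of 4 samples came from a second series. These were both 1wk Dox MΦ samples and the only 1wk Dox EC sample, where series and group cannot be told apart, and β 1wk WD replicate 3.

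At No Dox all 3 survival genes were detected in all 3 cell types, at levels that differed between them (the plot of scores by sample). ECs held the most *Bcl2l1*, MΦs held the most *Mcl1*, and β cells had less of each than one of the other types or both. *Bcl2* scores were highest in MΦs, which were called against β cells and not against ECs. MΦs were also far above the others in *Pmaip1* and highest in *Bid* and *Bcl2l11*. *Bax*, *Bad* and *Bbc3* did not differ past the call threshold between any 2 of the cell types. Over all genes tested, 37.7% were called between ECs and β cells, 43.2% between MΦs and β cells and 33.5% between ECs and MΦs. Of the 10 members, 4, 6 and 5 were called in these comparisons. Against β cells, 9 of 10 members were higher in ECs and 9 of 10 in MΦs, beside 47.5% and 46.3% of all genes. The median differences were 1.25 and 1.86 log2 units, beside medians of -0.07 and -0.12 over all genes. Without β replicates 1 and 2, *Bcl2* (-0.08) and *Pmaip1* (-1.45) were lower in ECs than in β cells.

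**Figure D1:**
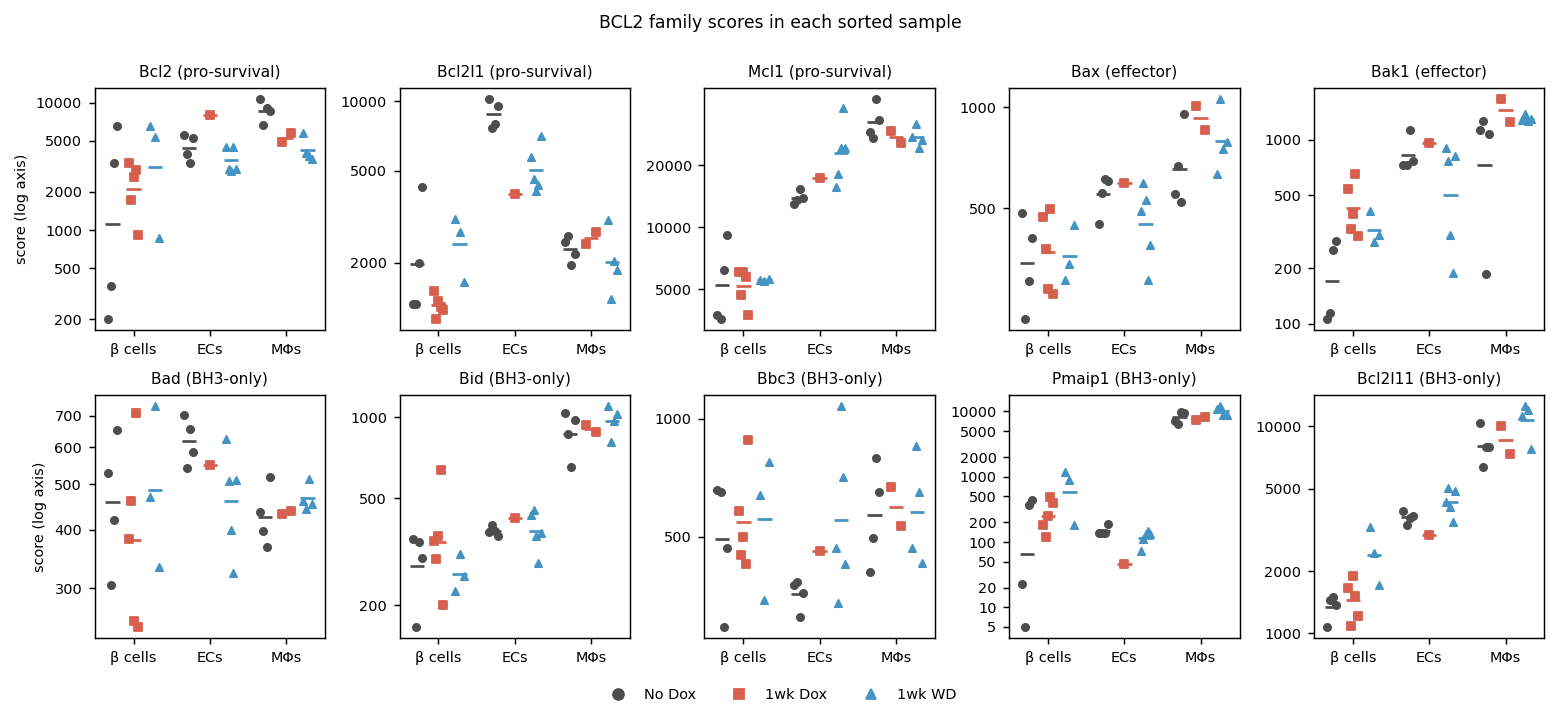
Scores of the 10 members in each sample, on a log axis, by cell type and by No Dox, 1wk Dox and 1wk WD. Points are samples and horizontal lines are geometric means. *Pmaip1* is 6447 or more in every MΦ sample and 1187 or less in every other sample, and *Bcl2l1* is highest in ECs at No Dox.

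*Bcl2l1* encodes BCL-XL, which binds BAX, BAK1 and several BH3-only proteins. Its scores were 10278, 7682, 7974 and 9541 in No Dox ECs, 2459, 2607, 1959 and 2169 in MΦs, and 1321, 1328, 1981 and 4270 in β cells. ECs lay above all samples of the other types, whereas MΦs and β cells overlapped. ECs exceeded β cells by 2.16 log2 units (SE 0.31, limma adjusted p = 0.000149) and MΦs by 1.95 (SE 0.31, adjusted p = 0.000315). MΦs differed from β cells by 0.22, with a 95% interval from -0.47 to 0.91.

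*Mcl1*, an early-response survival gene, scored 12985, 13589, 15304 and 13797 in No Dox ECs. In MΦs it scored 28976, 26918, 42049 and 33047, and in β cells 3726, 3567, 6173 and 9103. The 3 ranges did not overlap, and all 3 steps were called. MΦs were 6.17-fold above β cells (2.63 log2 units, SE 0.27, limma adjusted p = 1.02e-05). ECs were 2.66-fold above β cells (adjusted p = 0.00113) and 2.32-fold below MΦs (adjusted p = 0.00306). Without β replicates 1 and 2 the difference of ECs from β cells was 0.89, under the fold limit.

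*Bcl2*, the founding member of the family, scored 10750, 6654, 9132 and 8555 in No Dox MΦs and 5551, 3965, 3354 and 5259 in ECs. In β cells it scored 200, 363, 3342 and 6594. The 2 β samples below 400 were those with the lowest stromal sums, and the 2 high ones lay just below and above the EC range. MΦs were above β cells by 2.94 log2 units (SE 0.89, limma adjusted p = 0.0152), and by 0.88, under the fold limit, without β replicates 1 and 2. Leaving out a single β replicate gave 2.11 (replicate 1) to 3.79 (replicate 4), called in both cases. ECs did not differ past the threshold from β cells (adjusted p = 0.0874) or from MΦs (-0.96, adjusted p = 0.425). The EC and MΦ samples did not overlap, and the spread in that fit was shared with the β samples. In a fit without them, an alternative chosen after seeing the data, the adjusted p was 0.00205, with the same difference under the fold limit.

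Of the effectors, *Bak1* scored 732, 728, 1136 and 767 in No Dox ECs and 1133, 1268, 186 and 1073 in MΦs. In β cells it scored 106, 115, 251 and 283, below every EC sample but not below MΦ replicate 3. It was called higher than in β cells in ECs (2.26, SE 0.57, limma adjusted p = 0.00644) and in MΦs (2.09, SE 0.57, adjusted p = 0.00879, and 2.74 without MΦ replicate 3). Without β replicates 1 and 2 neither difference was called (adjusted p = 0.0598 and 0.0808). *Bax* scored 234 to 484 in β cells, 449 to 611 in ECs and 522 to 953 in MΦs. Its difference between MΦs and β cells was 1.90-fold, past the p limit (adjusted p = 0.0124) and under 2-fold.

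Among the BH3-only genes, *Pmaip1* had the widest range. Its product, NOXA, binds MCL1. It scored 7203, 6447, 9854 and 9493 in No Dox MΦs, 138, 137, 139 and 189 in ECs, and 23, 5, 375 and 446 in β cells. The MΦ samples lay above all others. They exceeded β cells by 6.86 log2 units (SE 1.12, limma adjusted p = 0.00029), and the difference of ECs from MΦs was -5.76 (SE 1.12, adjusted p = 0.00118). Leaving out a single β replicate moved the first to between 5.67 (replicate 2) and 7.75 (replicate 4). The β samples straddled the ECs, so that the order of ECs and β cells depended on the β samples used. ECs differed from β cells by 1.10 (adjusted p = 0.44) with all of them, by -1.45 (adjusted p = 0.000399) without replicates 1 and 2, and by 3.65 (adjusted p = 5.73e-05) without replicates 3 and 4.

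*Bcl2l11* encodes BIM, which binds all the pro-survival proteins. It scored 10390, 6388, 7932 and 7982 in No Dox MΦs, 3916, 3340, 3602 and 3705 in ECs, and 1075, 1456, 1493 and 1380 in β cells. Its 3 ranges were separate, in the same order as for *Mcl1*. MΦs exceeded β cells by 2.59 log2 units (SE 0.16, limma adjusted p = 2.67e-07). ECs were 2.21-fold below MΦs (adjusted p = 9.41e-05) and 2.71-fold above β cells (adjusted p = 1.9e-05). *Mcl1* and *Bcl2l11* also had the highest correlation of any 2 members (Pearson r = 0.89 over the 32 samples, which share the 3 cell types and cannot be taken as independent).

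*Bid*, which links death receptors to mitochondria once caspase 8 has cut it, scored 1035, 867, 652 and 978 in No Dox MΦs. It scored 362 to 397 in ECs and 166 to 353 in β cells. MΦs were called above β cells (1.64, SE 0.26, limma adjusted p = 0.000235) and ECs below MΦs (-1.20, adjusted p = 0.00247). *Bad*, whose product is held inactive by growth factor signalling, scored 305 to 654 in β cells, 543 to 703 in ECs and 368 to 518 in MΦs. *Bbc3*, the gene of PUMA and a p53 target, scored 294 to 658, 312 to 384 and 406 to 796. Neither *Bad* nor *Bbc3* was called in any comparison of cell types at No Dox.

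At 1wk WD, 3 of 10 members were called between ECs and β cells, 6 between MΦs and β cells and 5 between ECs and MΦs. Among all genes 39.9%, 46.2% and 40.3% were called. *Pmaip1* scored 10957, 11977, 8865 and 8730 in MΦs, 73, 110, 133, 148 and 131 in ECs, and 1187, 905 and 184 in β cells. Here the 3 ranges were separate and ECs were lowest, below β cells (-2.32, SE 0.47, limma adjusted p = 0.00109). Without β replicate 3 the differences from β cells were -3.15 in ECs and 3.27 in MΦs, beside 4.10 with it. Over 23 other settings the difference of ECs from β cells was -3.15 to -1.74. The β samples at 1187 and 905 had stromal sums of 357420 and 325245, beside 24866 in replicate 3. The part of these signals was not tested. *Bcl2l1* was again highest in ECs, 2.10-fold above β cells (adjusted p = 0.00477) and 2.53-fold above MΦs (adjusted p = 0.000467). Against β cells it was under the fold limit without β replicate 3 (0.80), without EC replicate 5 (0.95) and with the replicate block.

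*Mcl1* at 1wk WD scored 5503, 5453 and 5620 in β cells, the tightest of any member in any group with at least 3 samples. ECs were 4.14-fold above β cells (limma adjusted p = 6.69e-06). ECs and MΦs now overlapped, with a difference of -0.25 and a 95% interval from -0.70 to 0.20. *Bcl2* differed by -0.26 to 0.43 between the cell types and was not called. Without β replicate 3 its differences from β cells turned from 0.17 to -0.75 in ECs (adjusted p = 0.0121) and from 0.43 to -0.49 in MΦs (adjusted p = 0.0824), both under the fold limit. *Bax* was called between MΦs and β cells at this time (2.20-fold, adjusted p = 0.00293), and *Bak1* between ECs and MΦs (-1.37, SE 0.41, adjusted p = 0.0117). Without EC replicates 3 and 4, an alternative chosen after seeing the data, *Bak1* differed from MΦs by -0.66, under the fold limit, and from β cells by 1.34, which was then called (adjusted p = 0.000218).

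The β cell contrasts depend on scaling more than the others. Quantile normalization raised the median of all genes by 0.22 (ECs) and 0.17 (MΦs) against β cells at No Dox, and by 0.40 and 0.35 at 1wk WD. Under it *Bax* was also called higher in ECs than in β cells at both times (1.07 and 1.02) and in MΦs than in β cells at No Dox (1.27), and at 1wk WD *Bak1* (1.34) and *Bid* (1.36) were called while *Bcl2l1* (0.97) was not. ECs against MΦs shifted by 0.06 at both times.

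In ECs, 1 week after withdrawal, *Bcl2l1* scores were lower and *Mcl1* scores higher in every sample than in any No Dox sample. Neither passed the 2-fold limit, and 0 of 10 members were called in limma, beside 1.76% of all genes, and 4 of 10 had an unadjusted p under 0.05, beside 21.9% of all genes. With the p limit alone, *Bcl2l1* and 3.9% of all genes passed. The groups did not overlap for 2 of 10 members and for 10.7% of all genes.

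*Bcl2l1* scored 10278, 7682, 7974 and 9541 at No Dox and 5724, 4590, 4089, 4352 and 7059 at 1wk WD in ECs. The mean went from 8869 ± 1245 (SD, n = 4) to 5163 ± 1230 (SD, n = 5). All 5 later samples were below all 4 untreated ones, by 1.74-fold (-0.80, SE 0.16, 95% interval -1.15 to -0.45, limma adjusted p = 0.0201). Over 20 other settings the difference was -0.92 to -0.63, with adjusted p from 0.00623 to 0.133.

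*Mcl1* in ECs scored 12985, 13589, 15304 and 13797 at No Dox and 15622, 18089, 24208, 37921 and 24181 at 1wk WD. The mean went from 13919 ± 986 (SD, n = 4) to 24004 ± 8646 (SD, n = 5). The lowest 1wk WD sample was just above the highest No Dox sample, and replicate 4 was far above the rest. The difference was 0.72 (SE 0.20, 95% interval 0.28 to 1.16) and missed the p limit (limma adjusted p = 0.0702).

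The ratio of *Mcl1* to *Bcl2l1* within a sample needs no scaling between samples. In ECs it was 1.26, 1.77, 1.92 and 1.45 at No Dox, 4.34 in the 1wk Dox sample, and 2.73, 3.94, 5.92, 8.71 and 3.43 at 1wk WD. Every sample taken after Dox was above every untreated one, which at 1wk WD follows from the separate ranges of both genes given above and adds no support to them. In MΦs the ratio was 10.3 to 21.5 at No Dox and 8.93 to 22.9 at 1wk WD, and these overlapped. In β cells it was 2.13 to 3.12 at No Dox, 2.98 to 4.46 under Dox, and 1.78 to 3.40 at 1wk WD. Of the 5 β samples under Dox, 4 were above every untreated one, and the 1wk WD samples overlapped the untreated ones.

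**Figure D2:**
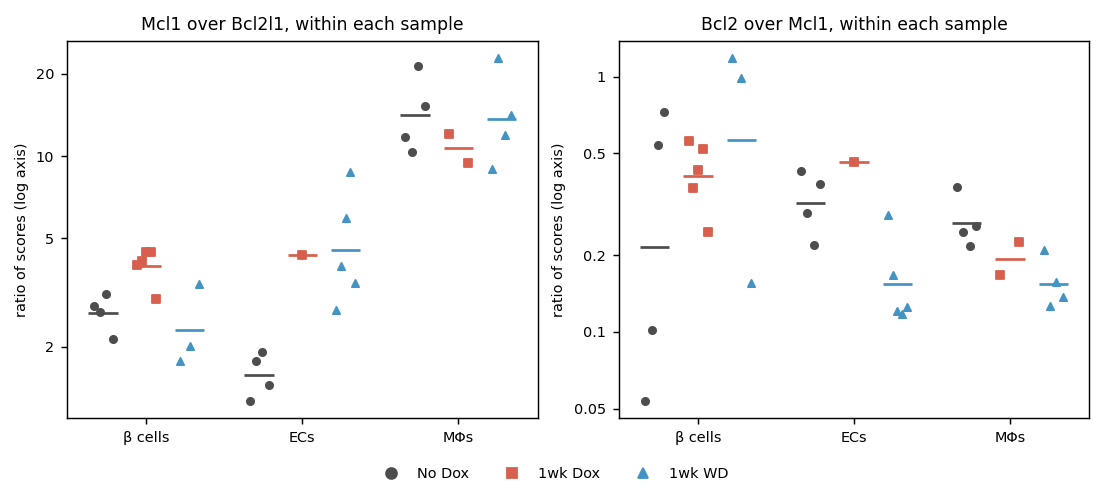
Ratio of *Mcl1* to *Bcl2l1* scores and of *Bcl2* to *Mcl1* scores within each sample, on log axes, by cell type and time. Points are samples and horizontal lines are geometric means. The EC ratio of *Mcl1* to *Bcl2l1* is 1.92 or less at No Dox and 2.73 or more at 1wk WD, and the MΦ ratio of *Bcl2* to *Mcl1* is lower in each 1wk WD sample than in each No Dox sample.

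Of the other members in ECs, *Bbc3* scored 312 to 384 at No Dox and 469, 339, 1076, 710 and 425 at 1wk WD (0.63, SE 0.28, limma adjusted p = 0.218). *Bak1* scored 728 to 1136 at No Dox and 904, 764, 304, 190 and 816 at 1wk WD (-0.71, SE 0.41). For both genes 1wk WD replicates 3 and 4 made most of the difference. Without these samples, an alternative chosen after seeing the data, *Bak1* differed by 0.0009, *Bbc3* by 0.19, *Mcl1* by 0.45 (adjusted p = 0.11) and *Bcl2l1* by -0.63 (adjusted p = 0.0514). *Bax*, *Bad*, *Bid*, *Pmaip1* and *Bcl2l11* differed by -0.42 to 0.25 and overlapped. Marker sums moved with the time in ECs. Endothelial markers summed to 535884 to 568394 at No Dox and 393853 to 463753 at 1wk WD, stromal markers to 5104 to 11542 and 16225 to 69224, and acinar markers to 67037 to 1839455 and 715 to 66922. Their part in the differences was not tested.

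The 1wk Dox ECs of the series were a single sample, from the second series of library identifiers, so no test was made. The table holds 6 further columns, with the same group codes in their headers as the 1wk Dox ECs and MΦs, that match no sample of the series and were not used here. Its *Bcl2l1* score of 3974 and its *Pmaip1* score of 46 were below the No Dox ranges by more than 2-fold from the mean (-1.15 and -1.68). *Bcl2* (8003), *Mcl1* (17235), *Bid* (423) and *Bbc3* (459) were above the No Dox ranges, and *Bcl2l11* (2998) was below. So 2 of 10 members were past 2-fold, beside 10.7% of all genes, and 7 were outside the No Dox range, beside 62.1%.

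In MΦs, *Bcl2* was lower after Dox. It was the only member called at 1wk WD, when 0.626% of all genes were called, and 2 of 10 members had an unadjusted p under 0.05, beside 17.3% of all genes. *Bcl2* scored 10750, 6654, 9132 and 8555 at No Dox, 4876 and 5749 under Dox, and 5741, 3996, 3789 and 3625 after withdrawal. Every sample taken after Dox was below every untreated one. At 1wk WD it had fallen 2.05-fold, from 8773 ± 1691 to 4288 ± 981 (SD, n = 4 each; -1.04, SE 0.17, 95% interval -1.41 to -0.66, limma adjusted p = 0.0184).

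This call was close to its limits. Over 21 other settings the difference was -1.23 to -0.93, and the adjusted p 0.00958 to 0.113. Leaving out No Dox replicate 1 gave -0.93 (adjusted p = 0.0435), under the fold limit, and without 1wk WD replicate 2, 3 or 4 the adjusted p was 0.0787, 0.08 or 0.0704. At 1wk Dox the difference was -0.71 (SE 0.21, adjusted p = 0.0781) and not called. At that time 0 of 10 members were called in limma, beside 2.26% of all genes, and 1 of 10 had an unadjusted p under 0.05, beside 21.3% of all genes.

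The ratio of *Bcl2* to *Mcl1* in MΦs was 0.371, 0.247, 0.217 and 0.259 at No Dox, 0.167 and 0.224 under Dox, and 0.21, 0.126, 0.156 and 0.138 after withdrawal. The 1wk WD ratios were all below the No Dox ratios, while 1 of the 1wk Dox ratios lay within them. The ratio of *Bcl2* to *Bcl2l1* overlapped between No Dox and 1wk WD, at 2.55 to 4.66 and 1.87 to 2.89 in MΦs and at 0.421 to 0.551 and 0.43 to 1.03 in ECs. *Mcl1* itself scored 24250 to 31670 at 1wk WD, within or just below the No Dox range. The MΦ samples also differed in their markers. Macrophage markers summed to 222976 to 334953 at No Dox and 351861 to 433106 at 1wk WD, and acinar markers to 26288 to 12184621 and 1635 to 220089. Duct markers summed to 2843 to 4223 and 1572 to 2239, and T and B lymphocyte markers to 355 to 792 and 696 to 1112. The part of these signals was not tested. Without No Dox replicates 2 and 4, which had the highest acinar sums, the *Bcl2* difference at 1wk WD was -1.23 (limma adjusted p = 0.0178) and at 1wk Dox -0.90 (adjusted p = 0.0274), an alternative chosen after seeing the data.

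No BH3-only gene was called in MΦs at either time after Dox. *Bcl2l11* scored 10390, 6388, 7932 and 7982 at No Dox and 11250, 12477, 11957 and 7746 at 1wk WD, a difference of 0.41 (SE 0.18, limma adjusted p = 0.282). *Pmaip1* differed by 0.31 at 1wk WD and overlapped. *Bak1* differed by 0.83, which rested on the No Dox sample at 186, the other MΦ samples lying at 1073 to 1674. Groups that did not overlap were 1 of 10 members for 1wk Dox against No Dox (30.9% of all genes), and 1 of 10 for 1wk WD against No Dox (9.24%). Between 1wk WD and 1wk Dox, limma called 0 of 10 members, beside 0.0866% of all genes, and 0 of 10 had an unadjusted p under 0.05, beside 9.7%. In that comparison *Pmaip1* and *Bad* did not overlap (2 of 10, against 30% of all genes).

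In β cells no member was called between any 2 times. At 1wk Dox against No Dox limma called 0 of 10, beside 0.0122% of all genes, and 1 of 10 had an unadjusted p under 0.05, beside 6.99%. At 1wk WD it called 0 of 10 against No Dox and 0 of 10 against 1wk Dox, beside 0% of all genes in either, and 2 of 10 in each had an unadjusted p under 0.05, beside 8.17% and 6.31%. Groups did not overlap for 1 of 10 members in each of the 3 comparisons, against 2.55%, 6.44% and 4.97% of all genes.

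*Bak1* in β cells scored 106, 115, 251 and 283 without Dox, 539, 326, 397, 652 and 301 under Dox, and 408, 278 and 302 after withdrawal. All 5 1wk Dox samples were above all 4 untreated ones, by 2.46-fold (1.30, SE 0.38), with an unadjusted p of 0.00537 and a limma adjusted p of 0.455. *Bax*, the other effector, differed from No Dox by 0.11 under Dox and by 0.06 after withdrawal, and its ranges overlapped.

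*Pmaip1* and *Bcl2* spread more in β cells than any other member. The *Pmaip1* scores were 23, 5, 375 and 446 in the No Dox group, 184, 119, 254, 493 and 390 in the 1wk Dox group, and 1187, 905 and 184 in the 1wk WD group. For *Bcl2* the No Dox scores were 200, 363, 3342 and 6594, those under Dox 3364, 1717, 2613, 2982 and 915, and those after withdrawal 6509, 5400 and 871. In each group the samples low in *Bcl2* were those low in stromal markers, and 1wk WD replicate 3, at 871 for *Bcl2* and 184 for *Pmaip1*, had the lowest stromal sum of its group and came from the second series of library identifiers. The same samples stood apart in other markers. β cell markers summed to 8666215 and 5538211 in No Dox replicates 1 and 2 and to 1654351 and 628011 in replicates 3 and 4, and acinar markers to 771275 and 33792 against 13328880 and 9774887. At 1wk WD the β cell sum of replicate 3 was 10883675, beside 620262 and 1896494.

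The size of the differences therefore depended on the untreated samples. *Bcl2* differed from No Dox by 0.90 (SE 0.99) under Dox and by 1.47 (SE 1.13) after withdrawal, and *Pmaip1* by 1.87 (SE 1.18) and 3.06 (SE 1.35). Without No Dox replicates 3 and 4 they were called at both times, *Bcl2* at 2.96 and 3.53 and *Pmaip1* at 4.41 and 5.60, and *Bak1* was called at 1wk Dox (1.93, limma adjusted p = 0.0142). In those fits 1199 of all genes tested were called at 1wk Dox and 1424 at 1wk WD, beside 2 and 0 with all samples. Without No Dox replicates 1 and 2 the differences at the 2 times were -1.16 and -0.59 for *Bcl2*, -0.68 and 0.51 for *Pmaip1*, and 0.67 and 0.28 for *Bak1*, and none of them was called. When 1wk WD replicate 3 was left out as well, an alternative chosen after seeing the data, the 1wk WD differences were 0.34 for *Bcl2* and 1.34 for *Pmaip1*. Over 25 other settings *Bcl2* at 1wk WD kept its sign in 24. Acinar markers moved with the groups as well, from 33792 to 13328880 at No Dox down to 214 to 21890 under Dox and 312 to 616090 after withdrawal. Endothelial markers in β samples summed to 1636 to 7404 at No Dox, 1503 to 55274 under Dox and 4319 to 16711 after withdrawal. Macrophage markers summed to 569 to 4383, 1077 to 2192 and 3813 to 6371 in these groups. Dendritic cell markers summed to 481, 309, 4207 and 5718 at No Dox, 2170 to 4703 under Dox, and 13080, 10025 and 2943 after withdrawal, where *Pmaip1* had the same order. The part of these other cell types' signals in the differences was not tested.

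**Figure D3:**
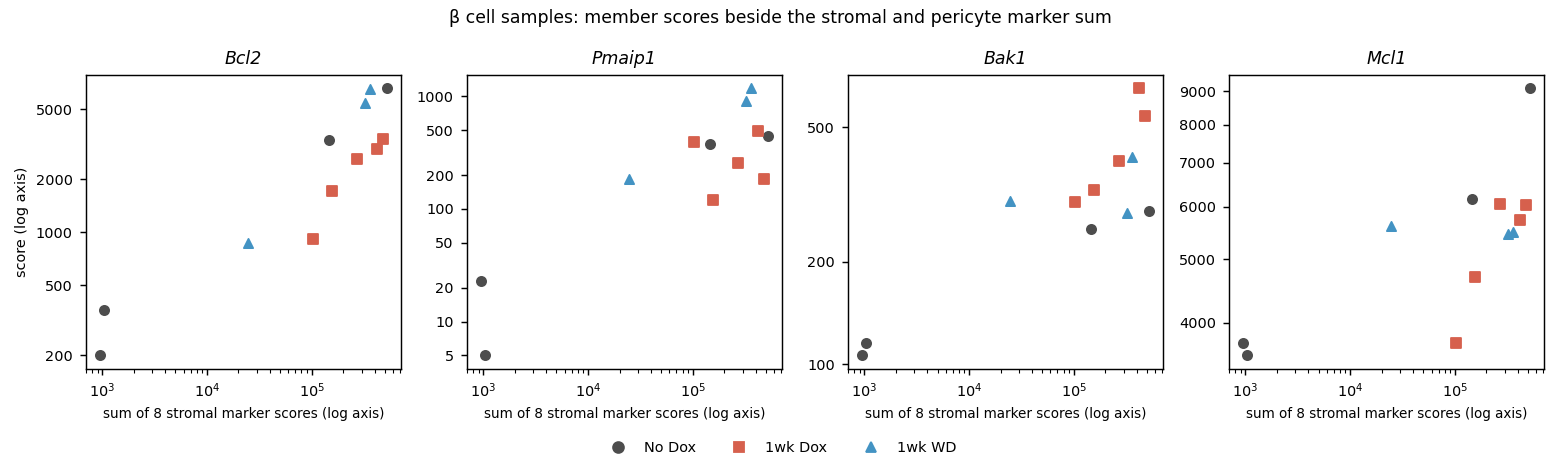
Scores of *Bcl2*, *Pmaip1*, *Bak1* and *Mcl1* in the 12 β samples against the summed stromal marker score of the same sample, both on log axes, coloured by time. The 2 untreated samples with stromal sums of 948 and 1027 have the lowest *Bcl2*, *Pmaip1* and *Bak1* scores.

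*Bcl2l1* in β cells scored 1321, 1328, 1981 and 4270 at No Dox, 1510, 1136, 1367, 1287 and 1249 under Dox, and 3096, 2704 and 1653 after withdrawal. The 1wk WD samples were all above the 1wk Dox samples, by 1.84-fold (0.88, SE 0.36, unadjusted p = 0.0297, limma adjusted p = 0.722). *Bcl2l11* scored 1075, 1456, 1493 and 1380 at No Dox, 1653, 1085, 1893, 1521 and 1211 under Dox, and 3279, 2446 and 1711 after withdrawal. The 1wk WD samples exceeded the untreated ones by 1.79-fold (0.84, SE 0.26, 95% interval 0.27 to 1.40, unadjusted p = 0.00744, adjusted p = 0.561). The values without No Dox replicates 1 and 2 (0.74) and without replicates 3 and 4 (0.94) were close to this.

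*Mcl1* in β cells scored 3726, 3567, 6173 and 9103 at No Dox, 6035, 4701, 6054, 5738 and 3724 under Dox, and 5503, 5453 and 5620 after withdrawal. The differences from No Dox were -0.02 (95% interval -0.61 to 0.58) and 0.08 (-0.60 to 0.76). *Bad*, *Bid* and *Bbc3* differed from No Dox by -0.27 to 0.30 under Dox and by -0.09 to 0.17 after withdrawal, with overlapping ranges.

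Whether the response to withdrawal differed between cell types was tested directly, as a difference of differences. Limma called 0 of 10 members between ECs and β cells, between MΦs and β cells and between ECs and MΦs, beside 0.368%, 0.0475% and 0.0356% of all genes. At an unadjusted p under 0.05 there were 4, 2 and 2 of 10, beside 15%, 11.8% and 11.5% of all genes. For *Mcl1*, ECs exceeded MΦs by 0.96 (SE 0.35, unadjusted p = 0.0121, adjusted p = 0.284). For *Bcl2l1*, ECs differed from β cells by -1.09 (adjusted p = 0.249), and for *Pmaip1* by -3.42 (adjusted p = 0.223). Without β No Dox replicate 4 both were called (-1.46, adjusted p = 0.0197, and -4.31, adjusted p = 0.0312), when 936 of all genes tested were called, beside 62 with it. Without β No Dox replicates 1 and 2 they were -0.52 (adjusted p = 0.627) and -0.88 (adjusted p = 0.573), and not called. For *Bcl2*, the member called in MΦs, ECs differed from MΦs by 0.70 with a 95% interval from -1.47 to 2.88. The spread behind this interval was shared with the β samples, where *Bcl2* varied most. Over 35 other settings the difference was 0.57 to 0.85, and the lowest limma adjusted p was 0.168. The fall of *Bcl2* was thus not shown to be particular to MΦs.

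**Figure D4:**
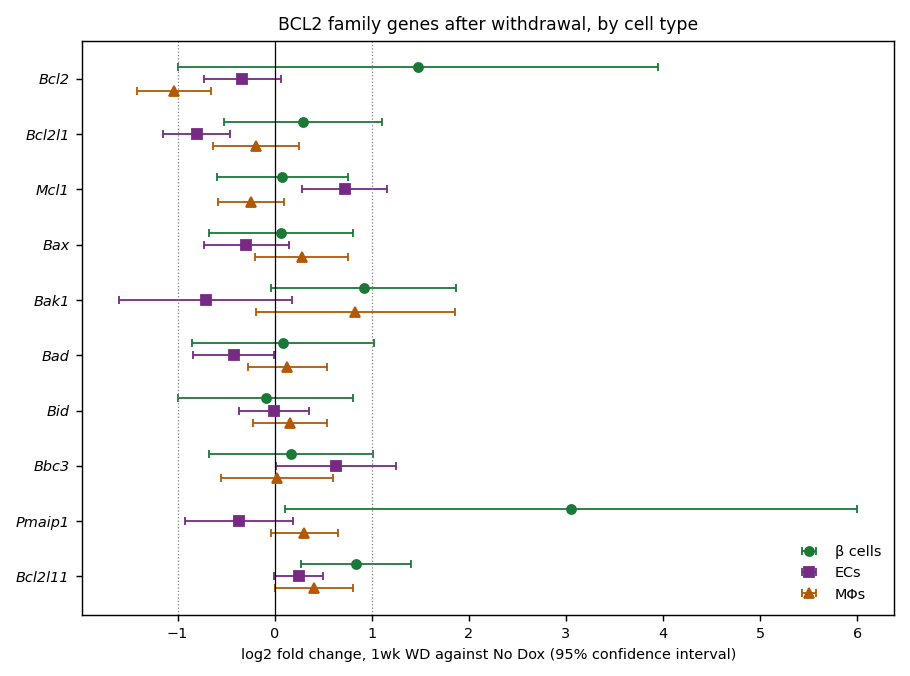
Log2 difference between 1wk WD and No Dox for each member in β cells, ECs and MΦs. Points are limma estimates, bars are 95% intervals and dotted lines mark 2-fold. The interval of *Bcl2* in MΦs (-1.41 to -0.66) and that of *Bcl2l1* in ECs (-1.15 to -0.45) lie below 0, and the β cell intervals of *Bcl2* and *Pmaip1* are the widest.

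The members varied among No Dox replicates about as much as other genes in β cells and ECs, and less in MΦs. At No Dox the median SD of log2 values was 0.594 over the members and 0.557 over all genes in β cells, 0.184 and 0.186 in ECs, and 0.292 and 0.398 in MΦs. The largest SD was that of *Pmaip1* in β cells (3.05). In MΦs the largest was that of *Bak1* (1.32).

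The wider apoptosis pathway was described by 52 further genes in 7 lists. Limma called 0 of the 50 tested in β cells, 0 of 46 in ECs and 0 of 49 in MΦs in any comparison of times, beside 0% to 2.26% of all genes. At an unadjusted p under 0.05 there were 8, 8 and 2 in β cells (6.99%, 8.17% and 6.31% of all genes), 9 in ECs (21.9%) and 13, 9 and 7 in MΦs (21.3%, 17.3% and 9.7%). With the p limit alone, and named after their values were seen, *Fas* was lower in ECs at 1wk WD (-0.40, SE 0.10, adjusted p = 0.0497) and *Trp53* higher in MΦs at 1wk Dox (0.73, SE 0.17, adjusted p = 0.0329). No pathway gene was called in the differences of response (0 of 51 in each, with 13, 4 and 3 at an unadjusted p under 0.05, beside the 15%, 11.8% and 11.5% of all genes).

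Between cell types at No Dox, 18 of 51 pathway genes were called higher and 7 lower in ECs than in β cells, 15 higher and 4 lower in MΦs than in β cells, and 6 higher and 10 lower in ECs than in MΦs, beside the 37.7%, 43.2% and 33.5% of all genes called. Death receptors and their adaptors made up 6 of the genes higher in ECs than in β cells, out of 7 tested. *Fas*, a death receptor, scored 9484 to 10219 in ECs, 176 to 379 in MΦs and 13 to 443 in β cells. *Tnfrsf10b*, the mouse TRAIL receptor, scored 3629 to 4358, 50 to 118 and 65 to 114. *Bik*, another BH3-only gene, scored 376 to 471 in ECs, 1 to 17 in MΦs and 4 to 35 in β cells. ECs thus exceeded β cells by 6.84 (SE 0.87) log2 units for *Fas* and by 5.47 (SE 0.29) for *Tnfrsf10b*. For *Bik* the difference was 5.35 (SE 0.77), but this gene passed the filter on low values only through ECs. Its call as higher there was thus not independent of the filter, and the size of its difference rests on low β cell scores.

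The executioner and initiator caspases were called higher than in β cells for 4 of 5 genes in ECs and for 5 of 5 in MΦs, beside 16.5% and 19.7% of all genes called higher and 21.2% and 23.5% called lower in these comparisons. Of the inhibitors of apoptosis, 1 of 5 was called higher in ECs and 2 of 5 in MΦs. *Birc3*, which acts in NF-κB signalling, scored 19817 to 32879 in MΦs, 2151 to 2643 in ECs and 630 to 4324 in β cells. The apoptosome and the factors released from mitochondria gave 1 of 7 called higher in ECs and 2 of 7 in MΦs. Of the genes of VDAC channels and mitochondrial fission, limma called 0 of 4 in both, with 3 at an unadjusted p under 0.05 in ECs and 0 in MΦs, beside 55.1% and 60.1% of all genes. Of the p53 and stress regulators 2 of 8 were called higher and 3 lower in ECs, and 1 of 8 higher in MΦs.

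The rest of the BCL2 family gave 4 genes higher and 4 lower of 15 tested in ECs against β cells, and 3 higher and 4 lower in MΦs against β cells, beside the 37.7% and 43.2% of all genes called. The *Bcl2a1* genes, pro-survival relatives expressed in blood cells, stood out in MΦs. *Bcl2a1b* scored 1820 to 2923 there, *Bcl2a1a* 520 to 673 and *Bcl2a1d* 1125 to 1364. In ECs *Bcl2a1a* and *Bcl2a1d* were listed at 1, the lowest value, in all No Dox samples, and *Bcl2a1b* at 1 to 2. These copies are nearly identical, so how reads were divided among them is uncertain. At 1wk WD *Hrk*, a BH3-only gene known from neurons, scored 40, 42 and 134 in β cells, 1 to 3 in ECs and 1 to 4 in MΦs. It passed the filter on low values only through β cells, so its call as higher there was not independent of the filter. At that time 14 of 51 pathway genes were called higher and 8 lower in ECs than in β cells, 14 higher and 6 lower in MΦs than in β cells, and 6 higher and 11 lower in ECs than in MΦs, beside the 39.9%, 46.2% and 40.3% of all genes called.

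The genes whose scores followed each member most closely over the 32 samples were found by Pearson correlation of log2 values, given without a test because the samples fall into 3 cell types. For *Pmaip1* they included *Hmha1* (0.977) and *Cxcl16* (0.975). For *Mcl1* they were *Zfand5* (0.973), *Vps54* (0.968) and *Tsc22d3* (0.968), and for *Bcl2l11* *Map3k8* (0.969), *Ifnar1* (0.967) and *Malt1* (0.967). For *Bcl2* they were *Gas7* (0.953), *Spsb1* (0.951) and *Ksr1* (0.936), and for *Bcl2l1* *Iqsec2* (0.906), *Camta1* (0.905) and *Unkl* (0.903).

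The closest genes to *Bid* were *Fam111a* (0.93), *Rps9* (0.926) and *Actb* (0.922), to *Bax* *Rps27* (0.92), *Gm9846* (0.901) and *Arpc2* (0.891), and to *Bak1* *Arhgdia* (0.919), *Ube3b* (0.913) and *Plbd2* (0.908). *Bad* and *Bbc3*, which differed least between cell types, had weaker neighbours. Those of *Bad* were *Naprt1* (0.719), *Loxl4* (0.711) and *Mrps6* (0.71), and those of *Bbc3* were 4933421E11Rik (0.733), *Tti1* (0.704) and *Adamts13* (0.68).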

How the data were processed

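RNA of sorted islet cells was amplified (NuGEN Ovation) and sequenced, and the authors aligned reads with TopHat to mm9 and normalized expression by TMM in Avadis NGS. The deposited values are whole numbers with a lowest value of 1, and were treated as a score because the authors' rounding and unit leave no reads to recover. The annotation version and any scaling for gene length are not given in the sources used here. Sums of scores were 23465985 to 53441769 per sample. The table held 38 sample columns, of which 6, with the group codes of 1wk Dox ECs and MΦs, match no sample of the series and were not used.

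A gene was tested if its mean score reached 20 in some group of the fit, on log2(score + 1), with limma 3.58.1 in R 4.3.3, with a mean-variance trend and Benjamini-Hochberg adjustment over all genes tested. Times were compared within each cell type, and cell types within No Dox and 1wk WD. The 1wk Dox EC sample entered no test. The fits were also run on simulated data, and the outcome is not reported here. Gene identifiers were matched to GENCODE M1 (22799 of 22850), and 25 symbols turned into dates by a spreadsheet were restored. Plots and summaries used Python 3.11.15.

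The members and all lists were chosen with earlier results of these data known. Named genes were the 10 members, in each comparison of pathway genes up to 4 called genes with the largest difference, and the 3 genes most correlated with each member, of which 1 is not reported here. Alternatives changed the pseudocount, filter, scaling, trend, samples fitted, weights, replicate block and single replicates. Those that leave out EC 1wk WD replicates 3 and 4, MΦ No Dox replicates 2 and 4, or β No Dox replicates 1 and 2 with β 1wk WD replicate 3, and fits of ECs and MΦs without β samples, were added after seeing the data.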

Additional observations from a re-analysis of the deposited data

Results flagged for a closer look

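Of 60 sets of scores (a member in a group of 4 or 5 samples), 3 held a sample far from the rest of its group. Chance flags about 1 in 20 sets. *Bak1* was high in EC No Dox replicate 3 (1136, beside 728 to 767). *Bak1* was low in MΦ No Dox replicate 3 (186, beside 1073 to 1268), and the difference between MΦs at 1wk WD and No Dox rests on it. *Pmaip1* was high in EC No Dox replicate 4 (189, beside 137 to 139).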

How the results depend on the processing

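Of 4039 member values under alternative settings, 3988 kept their direction and their side of the threshold or were uncalled in both, 18 were no longer called, 32 became called and 1 reversed. The reversal was *Pmaip1* in ECs against β cells at No Dox, -1.45 without β No Dox replicates 1 and 2. Without β No Dox replicates 3 and 4, 3 members were called in β cells under Dox and 2 after withdrawal, and the response to withdrawal differed for 3 members between ECs and β cells and for 2 between MΦs and β cells, with 1199, 1424, 2836 and 2385 of all genes called, beside 2, 0, 62 and 8 with all samples. The cause was not tested. With the p limit alone 1 member passed in ECs at 1wk WD. In MΦs at 1wk WD 0 members were called with no filter (*Bcl2* adjusted p = 0.103 in limma) or with no trend (0.113), and 0 to 1 when a replicate was left out. Quantile normalization called 5 members between ECs and β cells at 1wk WD. Leaving out a replicate gave 0 to 2 members for the response of ECs against β cells. Against a median of all genes of 0.064 in β cells at 1wk WD, quantile normalization shifted it by -0.13, and it shifted the responses against β cells by 0.17 (ECs) and 0.18 (MΦs). Deviations of same-numbered samples correlated at -0.52 to 0.41 over all fits. Between cell types the correlations were -0.21 to 0.41 at No Dox and -0.09 to 0.15 at 1wk WD. Acinar sums at 1wk WD were highest in replicate 1 of every cell type (616090 for β cells, 66922 for ECs, 220089 for MΦs). At No Dox they were highest in replicate 2 of ECs and MΦs but replicate 3 of β cells. These values do not settle whether replicate numbers pair the samples. With the replicate block 2 members were called between ECs and β cells at 1wk WD (*Bcl2l1* 0.99, under the fold limit), *Bcl2* in MΦs had an adjusted p of 0.0265 and *Bcl2l1* in ECs -0.92 (0.00623), and the count of members called changed in no other comparison. The unknown depth limits what can be said of low scores.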
